A study of Mus musculus with 12 samples.

Results

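Keratins and cornified envelope genes were followed in the lens epithelial cells (LCs) that stay on the lens capsule after cataract surgery in mice. The members are the 50 genes whose symbol is Krt followed by a number alone, the 15 genes of the Sprr family, and the genes Sfn, Perp, Ivl, Dsp, Pkp1, Dsg2, Dsc2, Trp63, Elf3 and Cldn4. These are 75 of 45859 genes in the deposited tables, taken by name. RNA was sequenced from 12 libraries, 3 in each of 4 groups: WT mice (strain C57BL/6) at 0 h and at 24 h post cataract surgery (PCS), and β8ITG-cKO mice (strain given as mixed, from C57BL/6 and 129S1/Sv) at the same times. All mice were 2 months old and all had fiber cells taken out through a cut in the central cornea, so the 0 h groups had been operated on too. β8ITG-cKO mice carried floxed Itgb8, the β8 integrin gene, and the MLR10-Cre transgene, which acts in the lens alone and from before birth. Genotype and strain background cannot be told apart in this design. Each library was made from several pooled capsules.

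Keratins are the intermediate filament proteins of epithelial cells, and a filament is built from pairs of a type I and a type II chain. Simple epithelia use Krt8 with Krt18 and Krt19, the basal layer of stratified epithelia uses Krt5 with Krt14 and Krt15, and Krt16 and Krt17 are known for appearing in epidermis at the edge of wounds. The cornified envelope is a layer of cross-linked protein under the membrane of terminally differentiating squamous cells. Involucrin (Ivl) and the small proline-rich proteins (Sprr) are precursors of it, and desmosomes, the junctions on which keratin filaments are anchored, are built into it. The lens epithelium is a simple epithelium whose best known intermediate filament protein is vimentin.

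The values are FPKM (fragments per kilobase of transcript, scaled to library size), with which levels can be compared between genes. Between libraries they rest on the deposited scaling, under which all genes summed to 446531 to 740140 FPKM per library. The libraries were of similar depth (0.87 to 1.08 times their median, from the steps between low values). The labelled tissue was borne out by its markers, of which 7 were listed. The lens epithelial genes Foxe3, Pax6, Cdh1 and Cryab were above 20 FPKM in every library. Cryaa, in 1 library of the 12 (replicate 2 of WT 0 h), read 0, and Gja1 and Gas6 are not given by value. By the call defined below, 3 of the 7 were lower over time in WT and 4 in β8ITG-cKO. The shares of all genes were 3.92% and 3.77%. Itgb8 had 7.26 to 10.8 FPKM at 0 h and 8.38 to 9.58 FPKM at 24 h in WT, against 4.58 to 7.31 FPKM and 9.28 to 11.8 FPKM in β8ITG-cKO. A value over the whole gene does not read the deletion of a single exon, so it does not check the labels. RNA of other eye tissues was present in unequal amounts. The 9 retina markers summed to 137 to 1137 FPKM in WT 0 h, 72.3 to 134 FPKM in WT 24 h, 175 to 325 FPKM in β8ITG-cKO 0 h and 840 to 982 FPKM in β8ITG-cKO 24 h libraries. The 8 lens fiber markers summed to 3964 to 5272 FPKM in WT 0 h and 730 to 1470 FPKM in WT 24 h libraries. In β8ITG-cKO they summed to 5591 to 6142 FPKM at 0 h and 866 to 895 FPKM at 24 h. All 8 were called lower over time in each genotype, against 3.92% and 3.77% of all genes. Their part in the changes of members over time was not tested. In whole tissue, fewer cells of a type and less RNA per cell cannot be told apart.

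Most members were low or listed at 0 in these cells. A total of 17 of the 75 were listed at 0 in all 12 libraries, 45 stayed under 0.5 FPKM in every library, and 30 reached 0.5 FPKM in at least 1 library. The 23 hair follicle and hair shaft keratins found in the files summed to 0.0481 to 0.692 FPKM per library. The 14 members that reached a group mean of 2 FPKM were Krt4, Krt5, Krt15, Krt16, Krt17, Krt18, Krt19, Sprr1a, Sprr2e, Dsc2, Dsg2, Perp, Sfn and Elf3. Krt19 was the highest of all members in 11 libraries, as the heat map of members shows, and WT 24 h replicate 1 was the exception, with Sprr1a highest. The summed FPKM of all members was 82.2 to 91.0 in WT and 77.0 to 87.9 in β8ITG-cKO libraries at 0 h, so the genotypes overlapped. At 24 h the sum was 203 to 290 in WT and 126 to 172 in β8ITG-cKO libraries, with every WT library above every β8ITG-cKO library. The Sprr genes alone gave 52.0 to 65.0 FPKM in WT and 6.84 to 16.5 FPKM in β8ITG-cKO, whereas the keratins overlapped, at 70.8 to 184 and 78.8 to 125 FPKM.

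**Figure D1:**
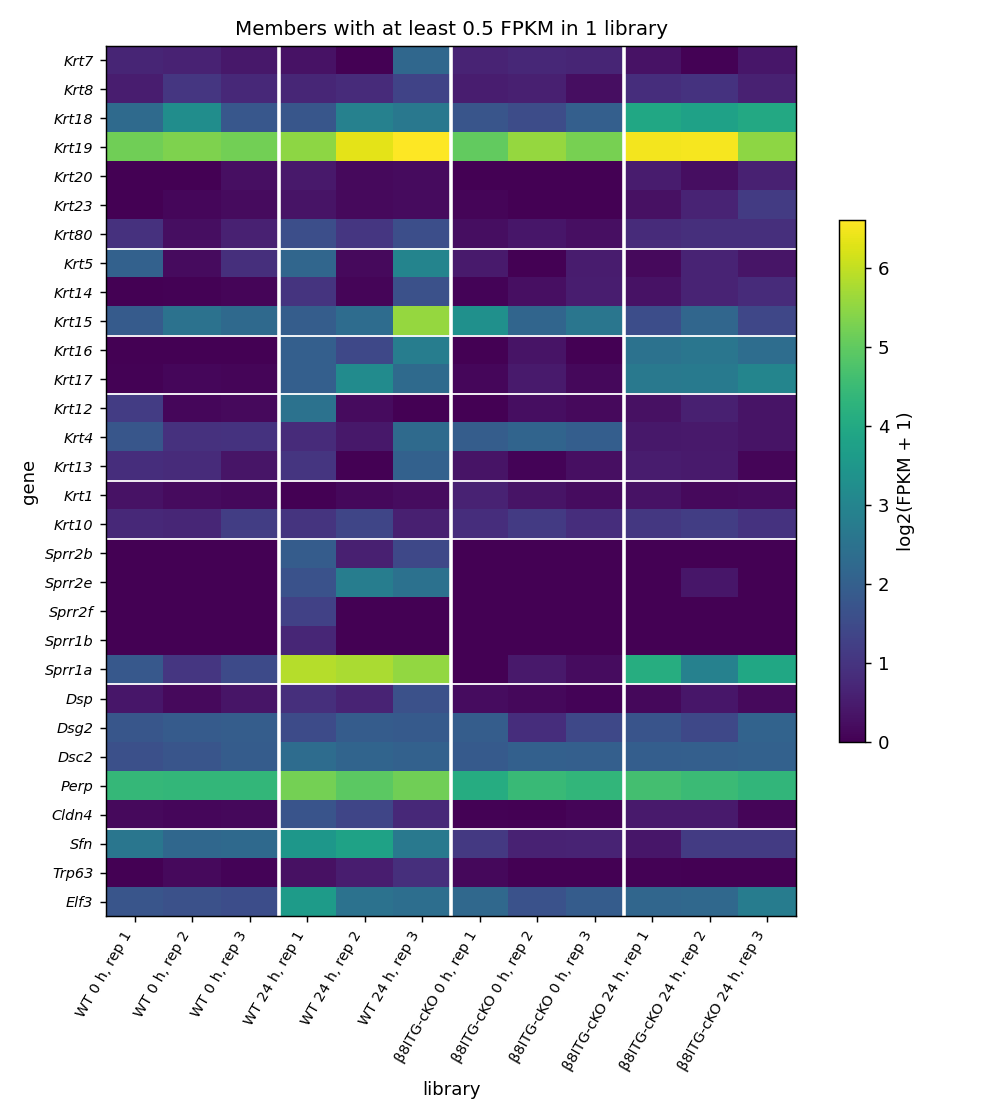
Heat map of log2(FPKM + 1), shown as colour, for the 30 members (rows, grouped by role) that reached 0.5 FPKM in at least 1 of the 12 libraries (columns, by group and replicate). Krt19 and Perp are high in every library, Sprr1a, Krt16 and Krt17 are bright at 24 h in both genotypes, and WT 24 h replicate 3 holds the brightest cell for Krt15, Krt5, Krt7, Krt13 and Krt14.

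The 4 groups were compared in pairs, and calls rested on the adjusted p (limma-trend on log2(FPKM + 1), Benjamini-Hochberg over all genes tested), which had to be 0.05 or less, and on the group means, which had to differ over 2-fold and by over 2 FPKM with 2 FPKM or more in 1 group. Genes with a mean under 0.5 FPKM were not tested, which left 51 members out of every comparison, so the members tested are the ones that are high in some group. Over time in WT, Krt16, Krt17 and Sprr2e passed through their 24 h libraries alone, so they could only be called higher. The same held for Krt16, Krt17 and Sprr1a in β8ITG-cKO. In WT over time, 6 of 24 members tested were called higher at 24 h and 0 lower, where 10.3% of all genes tested were called higher and 3.92% lower. The adjusted p alone gave 11 higher and 0 lower, against 20.9% and 8.81% of all genes. The groups did not overlap for 13 members higher and 0 lower at 24 h, against 31.3% and 15.6% of all genes. In β8ITG-cKO over time, 4 of 15 were called higher and 2 lower, against 11.3% and 3.77% of all genes. The groups did not overlap for 6 higher and 1 lower, against 42.9% and 14%. At 24 h, 1 of 24 was higher and 3 lower in β8ITG-cKO than in WT, against 3.37% and 0.286% of all genes. The groups did not overlap for 1 higher and 8 lower, against 17.5% and 9%. At 0 h, 0 of 14 were higher and 1 was lower in β8ITG-cKO, against 1.35% and 1.18%. By adjusted p alone these were 0 and 2, against 4.18% and 2.75%. The groups did not overlap for 1 higher and 2 lower, against 18% and 12.8%. The interaction, which asks whether the change over time differed between the genotypes and was called by adjusted p alone, took in 20 members. It called 1 with a larger and 1 with a smaller change in β8ITG-cKO, where 6.83% and 2.56% of all genes were called. The comparisons that share a group are not independent of each other.

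The Sprr family lies in a cluster of 15 genes on chromosome 3 from 92215835 to 92500493 (GRCm38). The 250 bases before the transcription start of 14 of them, from RefSeq GRCm38.p6, were searched on both strands for the letters TGANTCA, which the AP-1 factors (Fos and Jun proteins) bind. These letters were present in 9 of 14 Sprr promoters (64.3%), in 2 of 36 keratin promoters (5.56%), both of them entries for Krt13, and in 6.75% of all 32851 promoters of the same length. The ETS letters AGGAAG were present in 50.0% of the Sprr promoters and 29.5% of all promoters, and the TEAD letters GGAATG in 21.4% and 12.6%. The AP-1 letters read the same on both strands, and none of the 3 motifs is contained in another. Sprr promoters resemble each other, and those of Sprr2a1 and Sprr2a2 are identical, so their shares do not come from independent sequences. The promoters of the 3 Sprr genes with the highest levels and of Sprr2i, which was listed at 0 in every library, are given here 5′ to 3′ on the strand of the gene, with AP-1 letters in capitals.
Sprr1a: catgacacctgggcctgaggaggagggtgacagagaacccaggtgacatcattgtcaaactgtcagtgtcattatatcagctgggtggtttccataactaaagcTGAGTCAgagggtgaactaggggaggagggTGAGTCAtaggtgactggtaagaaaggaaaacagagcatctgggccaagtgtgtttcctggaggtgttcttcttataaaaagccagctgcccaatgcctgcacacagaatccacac
Sprr2e: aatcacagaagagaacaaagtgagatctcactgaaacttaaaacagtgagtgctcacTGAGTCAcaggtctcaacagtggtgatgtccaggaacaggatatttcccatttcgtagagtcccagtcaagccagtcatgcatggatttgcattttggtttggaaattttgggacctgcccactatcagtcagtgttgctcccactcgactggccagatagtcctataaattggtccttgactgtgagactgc
Sprr2b: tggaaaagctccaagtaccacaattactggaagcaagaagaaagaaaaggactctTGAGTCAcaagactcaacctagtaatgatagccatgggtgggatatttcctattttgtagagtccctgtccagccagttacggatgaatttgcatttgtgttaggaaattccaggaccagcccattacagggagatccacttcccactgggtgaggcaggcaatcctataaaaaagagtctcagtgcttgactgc
Sprr2i: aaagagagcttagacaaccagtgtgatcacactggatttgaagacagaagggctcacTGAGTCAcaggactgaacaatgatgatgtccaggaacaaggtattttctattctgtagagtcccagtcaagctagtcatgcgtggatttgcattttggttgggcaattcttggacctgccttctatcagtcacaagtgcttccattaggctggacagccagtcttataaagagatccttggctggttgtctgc
These windows lie at chr3:92485882-92486131 on the minus strand for Sprr1a, and on the plus strand at chr3:92351893-92352142 for Sprr2e, chr3:92316455-92316704 for Sprr2b and chr3:92407741-92407990 for Sprr2i. Sprr1a has the AP-1 letters 146 and 116 bases before its start, Sprr2b has them 195 bases before, and Sprr2e and Sprr2i both have them 193 bases before. The same letters therefore stand before Sprr genes with a signal and before Sprr genes listed at 0, as the plot of motif positions beside levels shows. A match is a description of these letters and no evidence of binding.

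**Figure D2:**
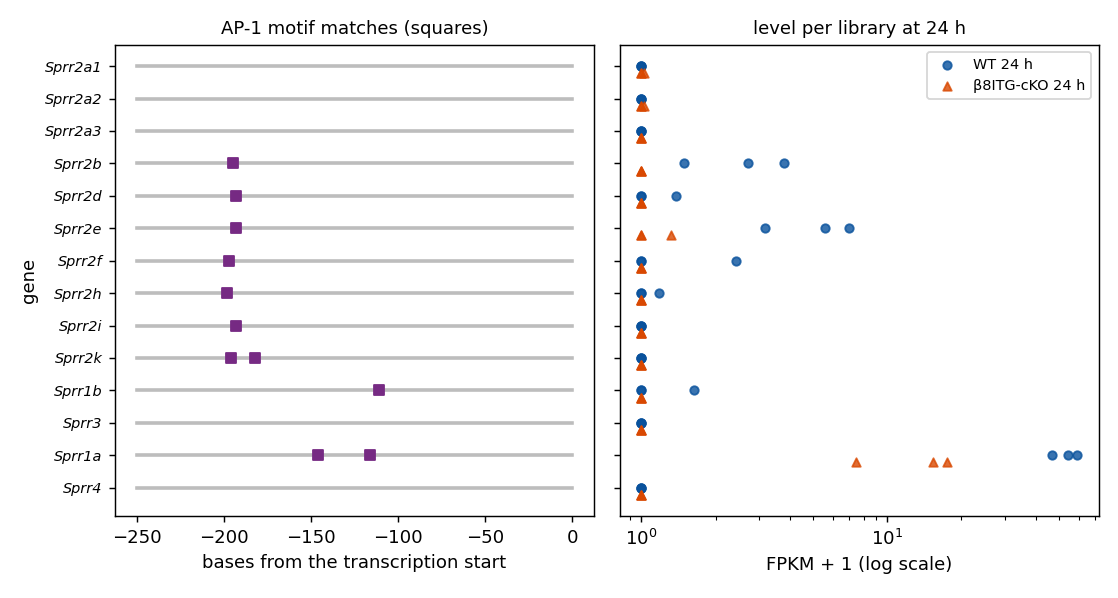
Left, positions of AP-1 letters (squares) in bases from the transcription start for the 14 Sprr genes with a promoter in the table; right, FPKM + 1 on a log scale in each WT (circles) and β8ITG-cKO (triangles) library at 24 h. Sprr2d, Sprr2i and Sprr2k carry the letters at or near the place where Sprr2e has them but had at most 0.384 FPKM.

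Sprr1a, a cornified envelope precursor, had the largest change of any member tested over time in both genotypes on the log2(FPKM + 1) scale. It had 2.53, 1.08 and 1.81 FPKM in WT 0 h, 57.8, 53.2 and 45.7 FPKM in WT 24 h, 0, 0.369 and 0.174 FPKM in β8ITG-cKO 0 h, and 16.5, 6.46 and 14.3 FPKM in β8ITG-cKO 24 h libraries. No 2 of these 4 groups overlapped. Its WT mean rose from 1.81 ± 0.728 (SD, n = 3) at 0 h to 52.3 ± 6.12 FPKM (SD, n = 3) at 24 h, a log2(FPKM + 1) change of 4.27 (SE 0.21, adjusted p = 6.24e-05), and in β8ITG-cKO from 0.181 ± 0.184 (SD, n = 3) to 12.4 ± 5.27 FPKM (SD, n = 3), or by 3.43 in log2 (SE 0.31, adjusted p = 0.000123). At 24 h it was 4.21-fold lower in β8ITG-cKO than in WT (log2 difference -2.07, SE 0.31, adjusted p = 0.00844). At 0 h the log2 difference was -1.23 (SE 0.23, adjusted p = 0.0249), but the means differed by less than 2 FPKM, so it was not called. The difference between the changes over time was -0.85 (adjusted p = 0.232), so the log2 change itself was not shown to differ between genotypes. No 50-base stretch of the Sprr1a transcript recurs in another gene.

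Sprr2e, of the Sprr2 branch of the same family, was found almost entirely in one group. It was listed at 0 in all 6 libraries at 0 h, had 2.18, 5.98 and 4.55 FPKM in WT 24 h, and 0, 0.321 and 0 FPKM in β8ITG-cKO 24 h libraries. It rose in WT (log2 change 2.31, SE 0.29, adjusted p = 0.00154) and was lower in β8ITG-cKO than in WT at 24 h (log2 difference -2.18, SE 0.30, adjusted p = 0.00608). The interaction was called as well, at -2.18 (SE 0.34, adjusted p = 0.00621). With every 0 h library at 0, it repeats the genotype difference at 24 h and is no separate support. Sprr2e passed the filter on low values through its WT 24 h libraries alone. Sprr2b had 2.80, 0.493 and 1.71 FPKM in WT 24 h and was listed at 0 in the other 9 libraries. Its adjusted p was 0.0204 in WT over time and 0.0571 between genotypes at 24 h, and its mean of 1.67 FPKM was under the 2 FPKM that a call needs. Sprr2f had 1.43 and Sprr1b 0.638 FPKM in WT 24 h replicate 1 and both were listed at 0 in the other 11 libraries. Sprr2 genes resemble each other: 10.2% of the 50-base stretches of Sprr2e and 13.7% of those of Sprr2b recur in other genes, mostly Sprr2i, Sprr2d or Sprr2a1, which had at most 0.384 FPKM here. The Sprr2a genes share 61.1% to 96.5% of their stretches, so their values near 0 are uncertain.

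**Figure D3:**
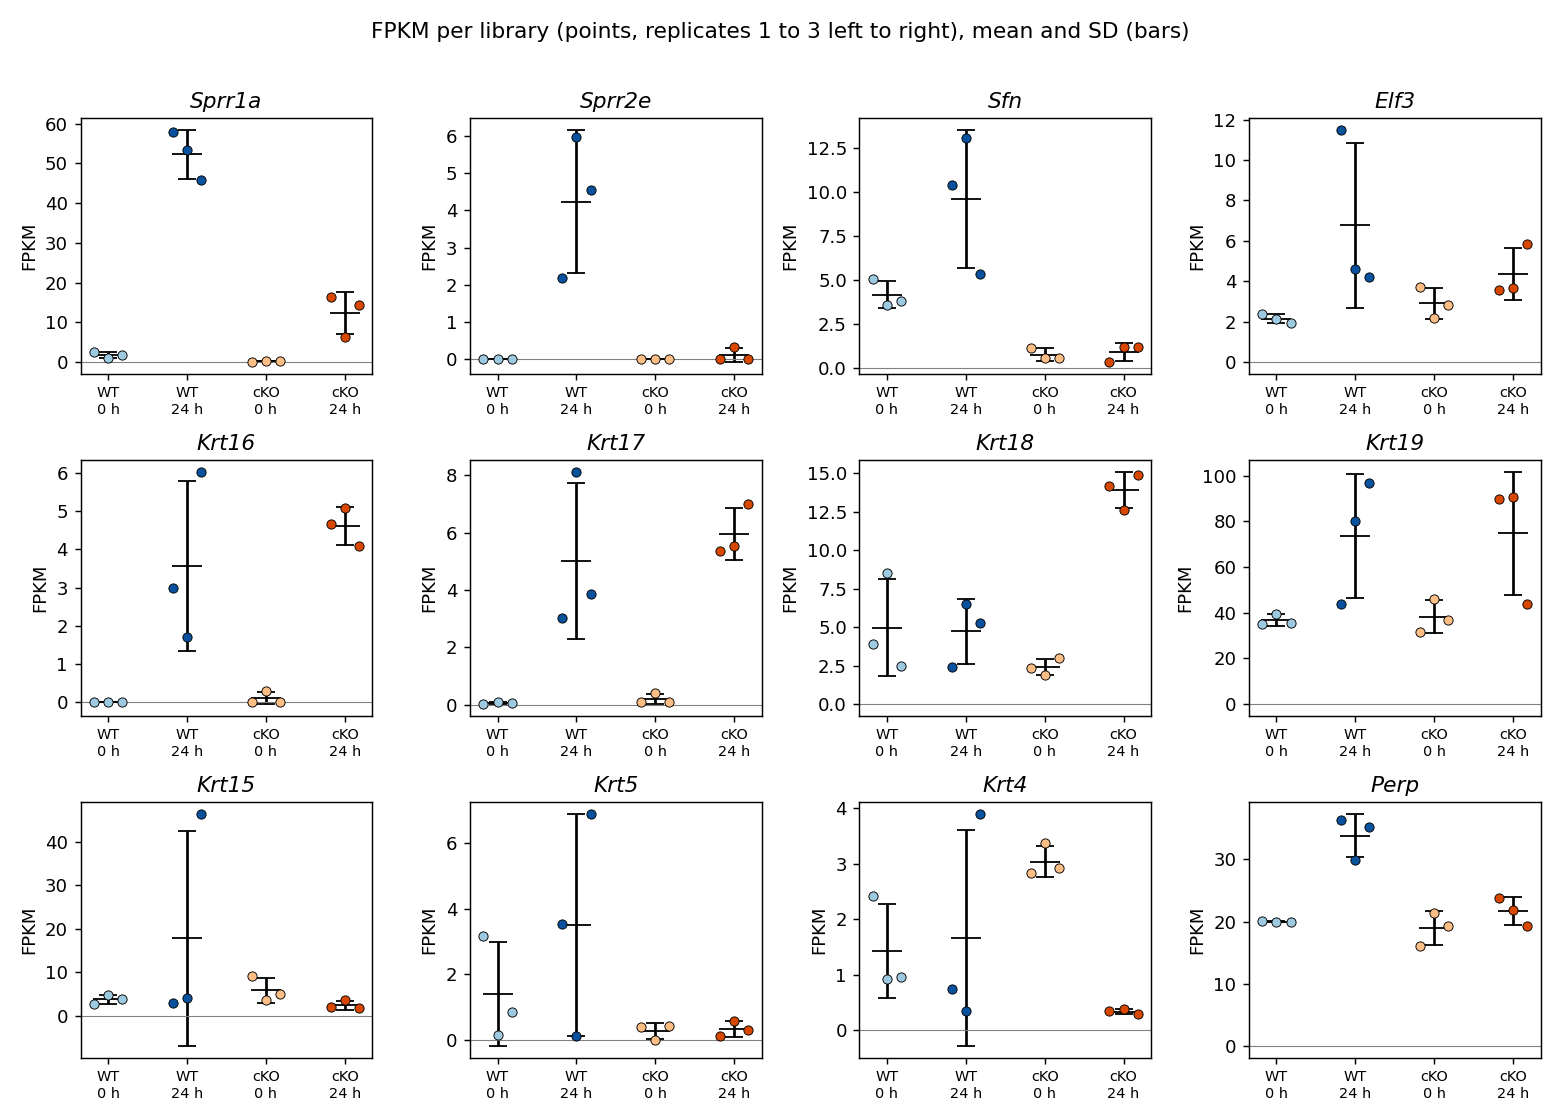
FPKM of 12 members in each library (points, replicates 1 to 3 from left to right) with the mean and SD of each group of 3 (black bars). Sprr1a has 4 separate groups, Sprr2e and Sfn are high in WT and low in β8ITG-cKO LCs at 24 h, Krt16 and Krt17 rise in both, Krt18 is highest in β8ITG-cKO at 24 h, and in Krt15 1 WT 24 h library lies at 46.4 FPKM.

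Neutrophil RNA moved in the same direction as Sprr1a and Sprr2e. The 7 neutrophil markers summed to 0.511 to 1.41 FPKM at 0 h. At 24 h they summed to 45.5 to 64.8 FPKM in WT and 12.1 to 35.0 FPKM in β8ITG-cKO libraries. Of 5 tested, 4 were called higher over time in WT, against 10.3% of all genes. Between the genotypes at 24 h, 0 of 5 were called, where 0.286% of all genes were called lower. The groups did not overlap for 3 of the 5, lower in β8ITG-cKO, against 9% of all genes. The interaction called 1 of 4 lower, against 2.56%. Ly6g was listed at 0 throughout. The part of neutrophils in the Sprr results was not tested. Of the 12 corneal epithelial markers, Ly6d was listed at 0 in every library, and Slurp1 had 3.28, 0.282 and 0.698 FPKM in WT 24 h and at most 0.196 FPKM in the other libraries. Of the 12, 7 were tested in WT over time and 0 were called, where 10.3% of all genes were called higher and 3.92% lower. Their median log2 change was -0.05, where that of all genes was 0.16. WT 24 h replicate 2 had the least Slurp1 of the WT 24 h libraries and 0.134 FPKM of Krt12, the keratin that defines corneal epithelium. That library had the most Sprr2e and 53.2 FPKM of Sprr1a. WT 24 h replicate 1, with the most Slurp1, had the most Sprr1a (57.8 FPKM) and the least Sprr2e (2.18 FPKM) of the WT 24 h libraries. The part of corneal epithelium in the Sprr results was not tested.

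Krt16 and Krt17, the wound keratins, went from next to nothing to a few FPKM in both genotypes. At 0 h, Krt16 was at 0 in every WT library, and the β8ITG-cKO libraries gave 0, 0.275 and 0 FPKM. At 24 h it reached 2.98, 1.70 and 6.03 FPKM in WT and 4.66, 5.09 and 4.10 FPKM in β8ITG-cKO. Krt17 went from 0.0245 to 0.0895 FPKM to 3.03, 8.11 and 3.86 FPKM in WT, and from 0.0842 to 0.392 FPKM to 5.34, 5.52 and 6.99 FPKM in β8ITG-cKO. In each genotype the times did not overlap for either gene. Both passed the filter on low values through their 24 h libraries alone, so over time they could only be called higher. The log2 change of Krt16 was 2.08 (SE 0.33, adjusted p = 0.00375) in WT and 2.37 (SE 0.15, adjusted p = 3.06e-05) in β8ITG-cKO, and that of Krt17 was 2.41 (SE 0.30, adjusted p = 0.00153) and 2.55 (SE 0.16, adjusted p = 2.75e-05). Between the genotypes at 24 h the groups overlapped, with log2 differences of 0.41 (SE 0.32, adjusted p = 0.534) for Krt16 and 0.30 (SE 0.30, adjusted p = 0.63) for Krt17, which does not show that the levels were alike. Krt16 shares 37.6% of its 50-base stretches with other genes, chiefly Gm11597 and Krt14, so some of its reads may be split between them; Gm11597 had 0.112 to 1.06 FPKM at 24 h and at most 0.0648 FPKM at 0 h. Krt6a and Krt6b, type II keratins that pair with Krt16 and Krt17 in wounded epidermis, had 5.86 and 2.64 FPKM in WT 24 h replicate 1 and 2.95 and 1.92 FPKM in replicate 3. In WT 24 h replicate 2 they had 0 and 0.198 FPKM, while Krt17 was highest in that library.

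**Figure D4:**
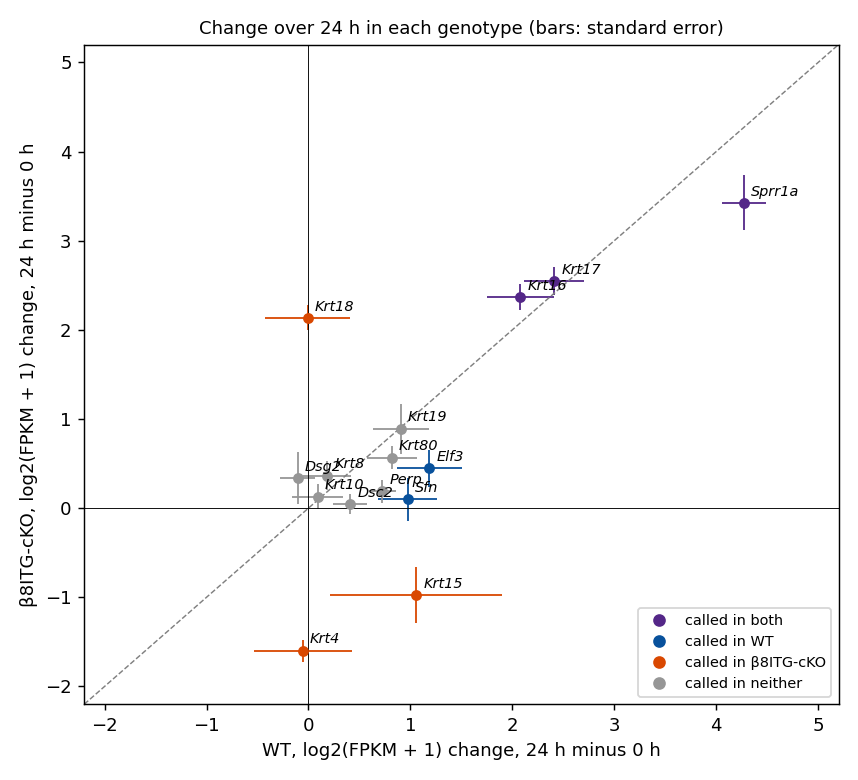
Change in log2(FPKM + 1) from 0 h to 24 h in WT (horizontal axis) and β8ITG-cKO (vertical axis) for the 15 members tested over time in both, with standard errors as bars and the line of equal change dashed. Krt16 and Krt17, called in both, lie near the line, and Sprr1a, also called in both, lies below it. Krt18, Krt4 and Krt15, called in β8ITG-cKO alone, lie away from the line.

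Krt18, the type I keratin of simple epithelia, was the only member higher in β8ITG-cKO than in WT by the call at 24 h. It had 3.92, 8.50 and 2.47 FPKM in WT 0 h, 2.39, 6.54 and 5.27 FPKM in WT 24 h, 2.37, 1.90 and 2.99 FPKM in β8ITG-cKO 0 h, and 14.2, 12.7 and 14.9 FPKM in β8ITG-cKO 24 h libraries. The β8ITG-cKO 24 h libraries lay above the other 9, while the WT groups overlapped. It rose 5.75-fold in β8ITG-cKO (log2 change 2.13, SE 0.14, adjusted p = 3.33e-05), and in WT the log2 change was -0.01 (SE 0.42, adjusted p = 0.993). The genotype difference at 24 h was 1.46 (SE 0.28, adjusted p = 0.0252) and the interaction 2.14 (SE 0.49, adjusted p = 0.021). The genotype call at 24 h is lost when any of the β8ITG-cKO 24 h libraries is left out (adjusted p = 0.0802 to 0.103) or when low genes are tested too (0.0765). The interaction is lost with low genes tested (0.0537) or without β8ITG-cKO 0 h replicate 2 (0.0581). The libraries with the most Krt18 were also those with the most retina RNA: the 9 retina markers summed to 982, 840 and 974 FPKM in β8ITG-cKO 24 h replicates 1 to 3, and in WT 0 h replicate 2, which held the most Krt18 of the WT libraries, to 1137 FPKM. All 9 were called higher in β8ITG-cKO than in WT at 24 h, against 3.37% of all genes. All 9 were also called higher over time in β8ITG-cKO and in the interaction, against 11.3% and 6.83%. Their part in the Krt18 result was not tested.

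Krt19, another type I keratin of simple epithelia, was the main keratin throughout and made up 52.7% to 77.5% of the summed keratin FPKM of a library. It had 35.2, 39.7 and 35.7 FPKM in WT 0 h, 43.7, 79.999 and 96.8 FPKM in WT 24 h, 31.8, 46.0 and 37.0 FPKM in β8ITG-cKO 0 h, and 89.8, 90.7 and 43.8 FPKM in β8ITG-cKO 24 h libraries. In each genotype 1 of the 24 h libraries stayed near the 0 h level. The log2 change was 0.90 (SE 0.27, adjusted p = 0.0415) in WT and 0.89 (SE 0.28, adjusted p = 0.0329) in β8ITG-cKO, but the means differed by 1.99-fold and 1.95-fold, so neither was called. The genotype difference at 24 h was 0.03 (SE 0.37, adjusted p = 0.98). Krt8, the type II partner of Krt18, had 0.192 to 1.52 FPKM over the 12 libraries and was called in no comparison. Krt8 shares 26.9% of its transcript stretches with Krt8-ps, so some of its reads may be split between them. The type I members summed to 44.6 to 165 FPKM per library and the type II members to 2.62 to 19.0 FPKM. Among members alone, the type I sum was 5.52 to 45.4 times the type II sum. These sums leave out keratins with a letter in the symbol, such as the type II keratins Krt6a and Krt6b. In WT 24 h replicate 1 these had 5.86 and 2.64 FPKM, beside a type II member sum of 7.41 FPKM. With them the type I excess in that library would be smaller. Krt80, a type II keratin, had adjusted p of 0.0404 in WT and 0.00911 in β8ITG-cKO over time but stayed at or below 2.00 FPKM, so it was not called. Vimentin, for comparison, had 1417 to 4417 FPKM.

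Some keratins of stratified and surface epithelia differed widely between the WT 24 h libraries. Krt15, a basal keratin, had 2.83, 4.03 and 46.4 FPKM in WT 24 h, so that 1 library held over 10 times the level of the others, against 2.72, 4.66 and 3.79 FPKM in WT 0 h. Krt5, the main basal type II keratin, had 3.53, 0.124 and 6.88 FPKM in WT 24 h and 3.17, 0.152 and 0.858 FPKM in WT 0 h, and in β8ITG-cKO at most 0.587 FPKM. Neither was called in WT over time (adjusted p = 0.37 and 0.48) or between the genotypes at 24 h (adjusted p = 0.368 and 0.284), though Krt5 was called lower in β8ITG-cKO without WT 24 h replicate 2 (adjusted p = 0.0159). WT 24 h replicate 1 held the highest value of 14 of the 58 members above 0 somewhere (24.1%), of which 4 were keratins. It held that of 9.55% of all genes averaging 0.5 FPKM or more. The 58 members include ones under that average, so the shares are of unlike sets. WT 24 h replicate 3 held the highest value of 15 of the 58 (25.9%), against 6.01% of those genes. These included 13 of the 38 keratins above 0 somewhere. Among these were Krt7 (3.60 FPKM), Krt13 (3.18 FPKM) and Krt14 (2.12 FPKM), keratins of ducts, of mucosa and of basal cells. The same library had the most Muc5ac (19.3 FPKM) and Muc4 (3.43 FPKM), mucins of the conjunctiva. WT 24 h replicate 1 instead had the most Krt12 (4.62 FPKM), Slurp1 (3.28 FPKM) and Krt6a (5.86 FPKM), but its sum over all 12 corneal epithelial markers (536 FPKM) was below that of replicate 3 (608 FPKM). The 7 conjunctiva and goblet cell markers, which include Krt4 and Krt13, summed to 2.46 to 4.77 FPKM in WT 0 h libraries. They summed to 10.7, 4.62 and 30.1 FPKM in WT 24 h replicates 1 to 3. In β8ITG-cKO the sum was 3.91 to 4.87 FPKM at 0 h and 6.89 to 10.8 FPKM at 24 h. Over time 1 of 4 tested was called higher in WT, against 10.3% of all genes. In β8ITG-cKO 1 of 2 was higher and 1, Krt4, lower, against 11.3% and 3.77%. The part of surface epithelium in these values was not tested.

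Krt4, a keratin of wet stratified epithelia such as conjunctiva, was called lower at 24 h than at 0 h in β8ITG-cKO. It had 2.41, 0.924 and 0.950 FPKM in WT 0 h, 0.742, 0.336 and 3.90 FPKM in WT 24 h, 2.83, 3.37 and 2.92 FPKM in β8ITG-cKO 0 h, and 0.336, 0.374 and 0.284 FPKM in β8ITG-cKO 24 h libraries. In β8ITG-cKO it fell 9.18-fold with no overlap (log2 change -1.60, SE 0.12, adjusted p = 6.01e-05), and at 0 h the log2 difference to WT was 0.79 (SE 0.23, adjusted p = 0.0858). Krt15 fell by call in β8ITG-cKO over time, from 9.07, 3.47 and 5.02 FPKM to 1.96, 3.51 and 1.65 FPKM (log2 change -0.98, SE 0.31, adjusted p = 0.0356), although the groups overlapped. Without β8ITG-cKO 0 h replicate 1, 0 h replicate 3, 24 h replicate 1 or 24 h replicate 3, Krt15 was no longer called (adjusted p = 0.0713 to 0.102), nor was it with a replicate block (0.0556), in 1 fit over all libraries (0.304) or with low genes tested (0.1004). The interaction was called for neither gene. The 12 corneal epithelial markers summed to 1065 to 1497 FPKM in β8ITG-cKO 0 h and 284 to 366 FPKM in β8ITG-cKO 24 h libraries. In WT they summed to 549 to 677 FPKM at 0 h and 326 to 608 FPKM at 24 h. The sum comes mostly from Aldh3a1, Tkt and Aqp5, and these libraries do not show from which cells. Of this list, 3 of 3 tested were called lower in β8ITG-cKO over time, against 3.77% of all genes. At 0 h, 1 of 5 was called higher in β8ITG-cKO, against 1.35%. In the interaction, 2 of 6 were called lower, against 2.56%. The part of corneal epithelium in the Krt4 and Krt15 values was not tested.

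Of the 6 desmosome and junction members, 0 were called in any comparison, but few were tested. In WT over time 5 were tested, where 10.3% of all genes were called higher and 3.92% lower. By adjusted p alone 2 of the 5 were higher, against 20.9%. The groups did not overlap for 4 higher, against 31.3%. At 24 h 5 were tested, where 0.286% of all genes were called lower in β8ITG-cKO. The groups did not overlap for 3 lower, against 9%. The other comparisons each tested 3. Perp, a tetraspan protein of desmosomes and the second most abundant member at 0 h, had 20.1, 19.9 and 20.0 FPKM in WT 0 h and 36.4, 29.8 and 35.1 FPKM in WT 24 h libraries. In β8ITG-cKO it had 16.0, 21.4 and 19.3 FPKM at 0 h and 23.8, 21.8 and 19.3 FPKM at 24 h, so the WT 24 h group stood above the other groups. Its adjusted p was 0.00669 in WT over time (log2 change 0.72, SE 0.13) and 0.0439 between genotypes at 24 h (log2 difference -0.62, SE 0.14), with fold differences of 1.69 and 1.56, under the 2-fold needed. The desmosomal cadherins Dsg2 and Dsc2 had 0.838 to 3.33 and 2.08 to 4.06 FPKM over all libraries, with adjusted p of 0.1 or more in every comparison. Dsp, the desmoplakin that ties keratin filaments to the desmosome, had 0.848, 0.565 and 2.14 FPKM in WT 24 h and at most 0.323 FPKM in the other libraries (adjusted p = 0.0732 in WT over time, 0.136 between genotypes at 24 h). Cldn4, a claudin of tight junctions, had 2.28, 1.61 and 0.687 FPKM in WT 24 h and at most 0.403 FPKM elsewhere, with an adjusted p of 0.0144 in WT over time. Pkp1, an epidermal desmosomal plaque protein, stayed at or below 0.235 FPKM, and Ivl at or below 0.0567 FPKM.

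Sfn (stratifin, 14-3-3 sigma), a cell cycle inhibitor of keratinocytes that p53 induces, was the member called between the genotypes at both times. It had 5.04, 3.60 and 3.83 FPKM in WT 0 h, 10.4, 13.1 and 5.35 FPKM in WT 24 h, 1.16, 0.542 and 0.581 FPKM in β8ITG-cKO 0 h, and 0.321, 1.21 and 1.20 FPKM in β8ITG-cKO 24 h libraries. Every WT library lay above every β8ITG-cKO library. It was 5.48-fold lower in β8ITG-cKO at 0 h (log2 difference -1.56, SE 0.19, adjusted p = 0.00552) and 10.5-fold lower at 24 h (log2 difference -2.44, SE 0.33, adjusted p = 0.00613). Over time it rose in WT (log2 change 0.97, SE 0.29, adjusted p = 0.0392), and in β8ITG-cKO the log2 change was 0.10 (SE 0.24, adjusted p = 0.769). The interaction was -0.88 (adjusted p = 0.217). Elf3, an ETS factor of epithelial differentiation, had 2.37, 2.12 and 1.94 FPKM in WT 0 h, 11.5, 4.61 and 4.22 FPKM in WT 24 h, 3.73, 2.18 and 2.81 FPKM in β8ITG-cKO 0 h, and 3.55, 3.67 and 5.85 FPKM in β8ITG-cKO 24 h libraries. It rose in WT (log2 change 1.19, SE 0.32, adjusted p = 0.0285), and in β8ITG-cKO the change was 0.45 (SE 0.21, adjusted p = 0.114). Without any WT 0 h replicate in turn, both Sfn (adjusted p = 0.0684 to 0.106) and Elf3 (0.0700 to 0.0795) lost their call in WT over time, as they did after rescaling every library to 1 median (0.0661 and 0.0514) or with low genes tested too (0.107 and 0.0875), and so did Sfn without WT 24 h replicate 1 (0.103) or 2 (0.116). Trp63, the p63 factor of basal epithelial cells, had 0.218, 0.451 and 0.856 FPKM in WT 24 h and at most 0.126 FPKM in the other libraries. About 15.0% of the 50-base stretches of Sfn recur in Gm7850 or Gm5279, and exons of Elf3 overlap Gm26642 on the opposite strand.

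**Figure D5:**
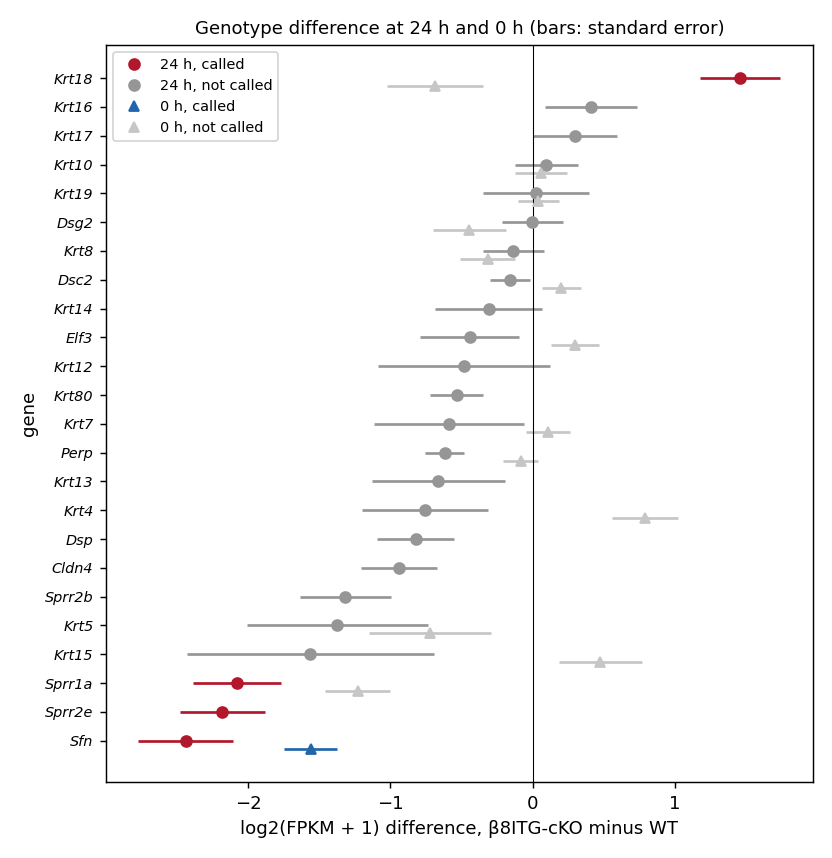
Difference in log2(FPKM + 1) between β8ITG-cKO and WT for the 24 members tested at 24 h (circles) and, where tested, at 0 h (triangles), with standard errors as bars. Sfn, Sprr2e and Sprr1a lie lowest and Krt18 highest at 24 h, and Sfn is the only member called at 0 h.

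Genes of the same pathways outside the members were taken from lists. Of the other cornified envelope genes, 7 were tested in WT over time, of which 2 were called higher, against 10.3% of all genes. In β8ITG-cKO 5 were tested, of which 1 was higher and 2 were lower, against 11.3% and 3.77%. Cdsn (corneodesmosin, an adhesive protein of cornified cells) went from 1.60, 0.501 and 1.34 FPKM to 67.6, 34.7 and 24.9 FPKM in WT (log2 change 4.25, SE 0.37, adjusted p = 0.000387). In β8ITG-cKO it went from 4.64, 2.96 and 3.16 FPKM to 34.2, 37.3 and 25.9 FPKM (log2 change 2.87, SE 0.18, adjusted p = 2.94e-05). Tgm1, the transglutaminase that cross-links the envelope, rose from 0.934, 0.299 and 0.607 FPKM to 6.47, 8.94 and 8.70 FPKM in WT and reached 1.81, 1.82 and 1.61 FPKM in β8ITG-cKO, where it was lower at 24 h (log2 difference -1.71, SE 0.16, adjusted p = 0.00162). The plakins Evpl and Ppl (envoplakin and periplakin) fell in β8ITG-cKO over time (log2 changes -1.04 and -1.07, adjusted p = 0.00294 and 0.000572). With Tgm1 they made up the 3 of 6 called lower in the interaction, against 2.56% of all genes. Cdsn and Evpl were called higher in β8ITG-cKO at 0 h (log2 differences 1.116 and 0.998, adjusted p = 0.0349 and 0.0122).

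Of the other desmosome and hemidesmosome genes, 1 of 9 was called higher in WT over time, near the 10.3% of all genes. This was Plec (plectin, a linker of filaments), with a log2 change of 1.73 (adjusted p = 0.000512). Plec rose in β8ITG-cKO too (1.02, adjusted p = 0.000617), with a called interaction of -0.71 (adjusted p = 0.0413). Dsg1b (desmoglein 1 beta) had 2.66, 2.74 and 2.96 FPKM in WT 24 h and 0.724, 0.674 and 0.418 FPKM in β8ITG-cKO 24 h libraries. It was the 1 of 9 called lower (log2 difference -1.24, SE 0.15, adjusted p = 0.00398), against 0.286% of all genes. Among other claudin and junction genes, Cdh1 (E-cadherin) fell in β8ITG-cKO over time (log2 change -1.15, adjusted p = 0.000119) with a called interaction of -1.59 (adjusted p = 0.00143), as was that of Tjp1, a tight junction scaffold (-0.53, adjusted p = 0.0353). In the same list, Cdh3 (P-cadherin) fell in WT (-1.62, adjusted p = 0.00111) and in β8ITG-cKO (-1.88, adjusted p = 0.000194), and the claudins Cldn12 and Cldn1 rose, the former in WT (1.06, adjusted p = 0.00709) and the latter in β8ITG-cKO (1.01, adjusted p = 0.0147). Of the epithelial transcription and splicing factors, Klf4, which promotes barrier gene expression in epidermis, had 27.4, 15.8 and 15.0 FPKM in WT 0 h and 3.74, 2.61 and 3.36 FPKM in β8ITG-cKO 0 h libraries (log2 difference -2.23, SE 0.23, adjusted p = 0.00312). Klf5, a related factor, had 4.26, 1.64 and 8.77 FPKM in WT and 0.323, 0.614 and 0 FPKM in β8ITG-cKO at 0 h (log2 difference -2.00, SE 0.43, adjusted p = 0.0358). It rose in β8ITG-cKO to 4.95, 3.17 and 3.90 FPKM at 24 h (log2 change 1.94, SE 0.21, adjusted p = 0.000294). Tfap2a, a factor of surface ectoderm, was the 1 of 6 called lower in the interaction (-0.69, SE 0.17, adjusted p = 0.0304), against 2.56% of all genes. At 24 h, 0 of 6 of these factors tested were called between the genotypes, none passed by adjusted p alone, and the log2 difference of Klf4 was -0.98 (adjusted p = 0.0995).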

How the data were processed

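The authors deposited FPKM per library and gene, in 4 tables that each hold a pair of conditions. Libraries were prepared with a stranded total RNA kit for low input and sequenced as read pairs. The submitters' processing notes name FastQC, cutadapt 1.12, TopHat2 2.1.0 and Cuffdiff 2.2.1 with mm10 and GRCm38.p5; whether counting used strand is not given in the sources used here. The tables also hold Cuffdiff's group values, fold changes and p-values, which were not used (8 value columns). Tables that share a library gave it the same values (0 differed).

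For each pair of groups, log2(FPKM + 1) was tested by limma-trend and eBayes (limma 3.58.1, R 4.3.3) after genes averaging under 0.5 FPKM were dropped; fold changes are understated for low genes on this scale. The interaction was fitted over 12 libraries. The fit recovered known changes in simulated data with a normal spread on the log scale. These changes were put only into genes well above the filter on low values. Lower members, such as Krt16, Krt17, Krt4 and Sprr2e, were not covered by it. Read counts were not used, so no counting error is given. Replicates are pools of capsules, and p-values measure the spread between these pools. For a single gene, exact permutation of 3 against 3 libraries cannot go under p = 0.1. Members and lists were chosen with earlier results of these data known. Named with values were members with a group mean of at least 2 FPKM or called anywhere. In other pathway lists, called genes were named, with at most the 3 largest changes per direction. Marker lists fell under the same rule but are given by sums or counts instead. Those of corneal stroma and of iris and ciliary pigment cells are not given. Other genes with values were named after their values were seen. A result in the junction list is not reported here. Promoters come from RefSeq GRCm38.p6 (54 members had one), and positions were compared with it (53 members the same, 22 overlapping). Tables and figures used Python 3.11.15, pandas 2.3.3, numpy 2.4.6 and matplotlib 3.10.9. Alternatives covered thresholds, pseudocount, filter, rescaling to the same median, 1 fit over all libraries, a replicate block and each library left out.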

Additional observations from a re-analysis of the deposited data

Results flagged for a closer look

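The change of Krt18 from 0 h to 24 h differed between the genotypes in the test of the difference itself: it was 2.14 larger in β8ITG-cKO than in WT on the log2(FPKM + 1) scale (SE 0.49, adjusted p = 0.021 from limma-trend). The change of Sprr2e differed in the opposite direction, at -2.18 (SE 0.34, adjusted p = 0.00621 from limma-trend). Sprr2e was listed at 0 in all 6 libraries at 0 h, so this value is its genotype difference at 24 h again. Groups of 3 libraries were too small to look for single outlying libraries.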

How the results depend on the processing

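No result changed sign while called. In WT over time, 6 members were called higher, 11 by adjusted p alone, and 4 to 6 by the full call with 1 library left out. Rescaling moved the median gene there from 0.16 to -0.05. In β8ITG-cKO over time, members called lower were 2, and 1 without a filter on low values, with a mean of at least 2 FPKM, with a replicate block, in 1 fit over all 12 libraries or with a fold over 4 (Krt4 in 4 of these, Krt15 with the higher filter, in which Krt4 was not tested), and 1 to 2 with 1 library left out. At 24 h, members higher in β8ITG-cKO were 1, and 0 without a filter or with a fold over 4, and 0 to 1 with 1 library left out; members lower were 3 to 5, with Krt5 and Sprr2b added without WT 24 h replicate 2. At 0 h, 2 were lower by adjusted p alone, and 0 to 1 higher with 1 library left out (Krt4 without WT 0 h replicate 1). In the interaction, higher calls were 0 without a filter and 0 to 1 with 1 library left out (Krt18 lost without β8ITG-cKO 0 h replicate 2), and lower calls were 0 with a mean of at least 2 FPKM and 1 to 2 with 1 library left out (Krt4 added without WT 24 h replicate 2, Sfn without WT 24 h replicate 3). Libraries of the same number did not deviate together (r from -0.22 to 0.08 over the comparisons), so numbers were not taken as pairs; the block left 1 member lower in β8ITG-cKO over time, as above. The cause of these shifts was not tested.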
